A study of Mus musculus with 30 samples.

Results

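The effect of reducing dietary soy protein on the liver transcriptome was examined in the 12 livers of mice fed Soy-10% or Soy-20%, out of 30 livers from 5 diets. These are all livers that the labels place in either group, 6 per diet. The mice were males of the inbred C57BL6/J strain, labelled as 6 months old. They arrived at 9 weeks of age, were singly housed, and all 12 ate the Soy-20% diet for 2 weeks before the study began at 12 weeks of age. The Soy-20% mice (labelled 20Soy) then stayed on 20% soy protein, with 0.22 g methionine and 0.22 g cysteine per 100 g of diet. The Soy-10% mice (labelled 10Soy) were switched to 11.5% soy protein, with 0.13 g of each amino acid per 100 g. Neither diet had sulfur amino acids added. Each diet was eaten for 12 weeks by 10 mice, of which 6 gave a liver library, and tissue was taken after a 4 h fast. Protein and sulfur amino acids fell together and the removed protein was replaced by carbohydrate, so these changes cannot be told apart. The casein-restricted comparison that is set beside the soy values below used Cas-5% and Cas-20% mice (5% and 20% casein), which share no liver with it.

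The liver is where most dietary amino acids are first used or broken down. When amino acids run short, the kinase GCN2 phosphorylates eIF2, and translation of the transcription factor ATF4 rises. ATF4 raises genes of amino acid synthesis and transport and, in liver, the hormone FGF21. Methionine also enters the methionine cycle, in which S-adenosylmethionine gives up its methyl group and homocysteine is either remethylated from betaine or folate or passed on to cysteine, taurine and glutathione. Surplus nitrogen leaves as urea.

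Library totals ran from 9362715 to 13050108 counts in the 12 livers and did not differ between the diets (two-sided exact permutation p = 0.81). Between 26.0 and 29.2% of the counts of a liver came from its 10 most abundant genes. The hepatocyte markers *Alb*, *Ttr* and *Serpina1c* were abundant in every liver. The library labelled Soy-10% replicate 4 stood apart. Its 20 measured genes of pancreatic acinar cells summed to 1303 CPM (counts scaled to the library total), against 18.7 to 41.6 in the other 11 livers, and 20 of 20 were highest there. They made up 0.13% of that library, and 17 of the 20 had at most 3 counts in each of the other 11. *Cela1*, an elastase gene, was the only acinar gene that passed the filter on low counts and it was not called. Its log2 difference turned from 0.20 to −0.37 without that liver. No islet gene of 7 was measured. Where the number of called genes, over all genes or in a list, changed without Soy-10% replicate 4, that is given below. Summed markers of red blood cells, macrophages, stellate cells, sinusoidal endothelium and adipocytes overlapped between the diets, with exact permutation p from 0.21 to 0.91. Hepatocyte markers also overlapped, at 73108 to 84884 CPM on Soy-10% and 71588 to 80783 on Soy-20% (exact permutation p = 0.08). Lymphocyte markers summed to 10.9 to 16.8 CPM on Soy-10% and 10.5 to 57.3 on Soy-20% (exact permutation p = 0.056), and the immunoglobulin gene *Ighm* among them had a log2 difference of −1.36 ± 0.38 (adjusted p = 0.11). The mitochondrially encoded genes summed to between 106804 and 124701 CPM on Soy-10% and between 118713 and 142971 on Soy-20% (exact permutation p = 0.024). Skeletal muscle markers were near the detection limit, at 1.45 to 3.68 against 3.19 to 6.97 CPM (exact permutation p = 0.0087). The part of these shifts in the gene results was not tested. In whole liver, fewer cells of a type and less RNA per cell cannot be told apart.

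**Figure D1:**
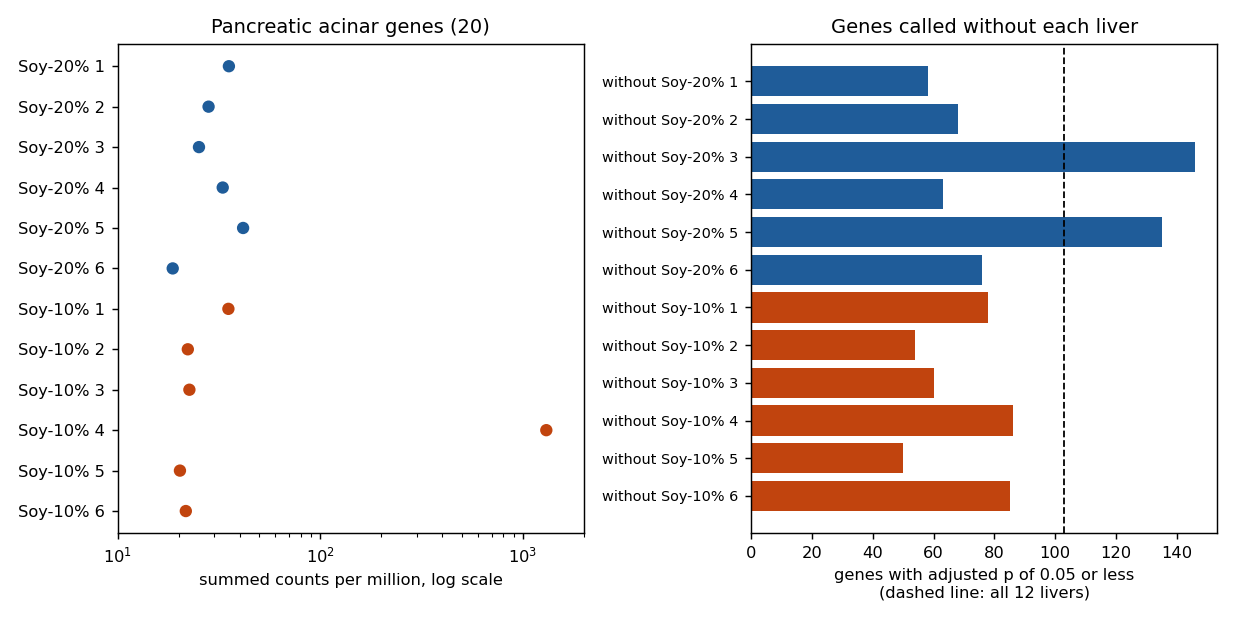
The left panel plots the summed CPM of 20 pancreatic acinar genes in each liver on a log axis, with Soy-20% in blue and Soy-10% in orange. Soy-10% replicate 4 lies at 1303 and the other 11 livers between 18.7 and 41.6. The right panel plots how many genes had an adjusted p of 0.05 or less when each liver was left out, from 50 to 146, with a dashed line at 103 for all 12 livers.

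On Soy-10%, 5 of 28 tested ATF4 target genes were higher, among them *Asns*, *Psat1* and *Fgf21*, which were raised 4.28- to 7.31-fold. Lower were 4 of 22 genes of the methionine cycle and methyl transfer, among them *Bhmt*, 3 of 13 genes of the urea cycle and ammonia release, among them *Ass1*, and the desaturase *Scd1*. Of 11897 genes tested with edgeR's quasi-likelihood test, 103 had a Benjamini-Hochberg adjusted p of 0.05 or less (0.866%). Of these, 38 (0.319%) were higher and 65 (0.546%) lower on Soy-10%. An unadjusted p under 0.05 was reached by 1460 genes (12.3%). The median absolute log2 fold change of the 103 genes was 0.65, and 38 of them changed by under 0.5 log2 units. Changes of at least 1 log2 unit in size were found for 27 of them (0.227%), 9 higher and 18 lower. The values of both diets did not overlap for 65 of the 103 genes, against 160 of all genes tested (1.34%). Of those 65 genes 24 were higher and 41 lower on Soy-10%, against 0.597% and 0.748% of all genes tested. Protein-coding genes made up 94 of the 103. Without Soy-10% replicate 4 the count was 86 of 12002 genes (0.717%), 31 higher and 55 lower, and 73 of the 103 were among them. Changes of at least 1 log2 unit then numbered 24, 7 higher and 17 lower. Leaving out 1 liver moved the count by over 1.5 times for Soy-20% replicates 1, 2 and 4 (58, 68 and 63 genes) and for Soy-10% replicates 2, 3 and 5 (54, 60 and 50 genes).

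**Figure D2:**
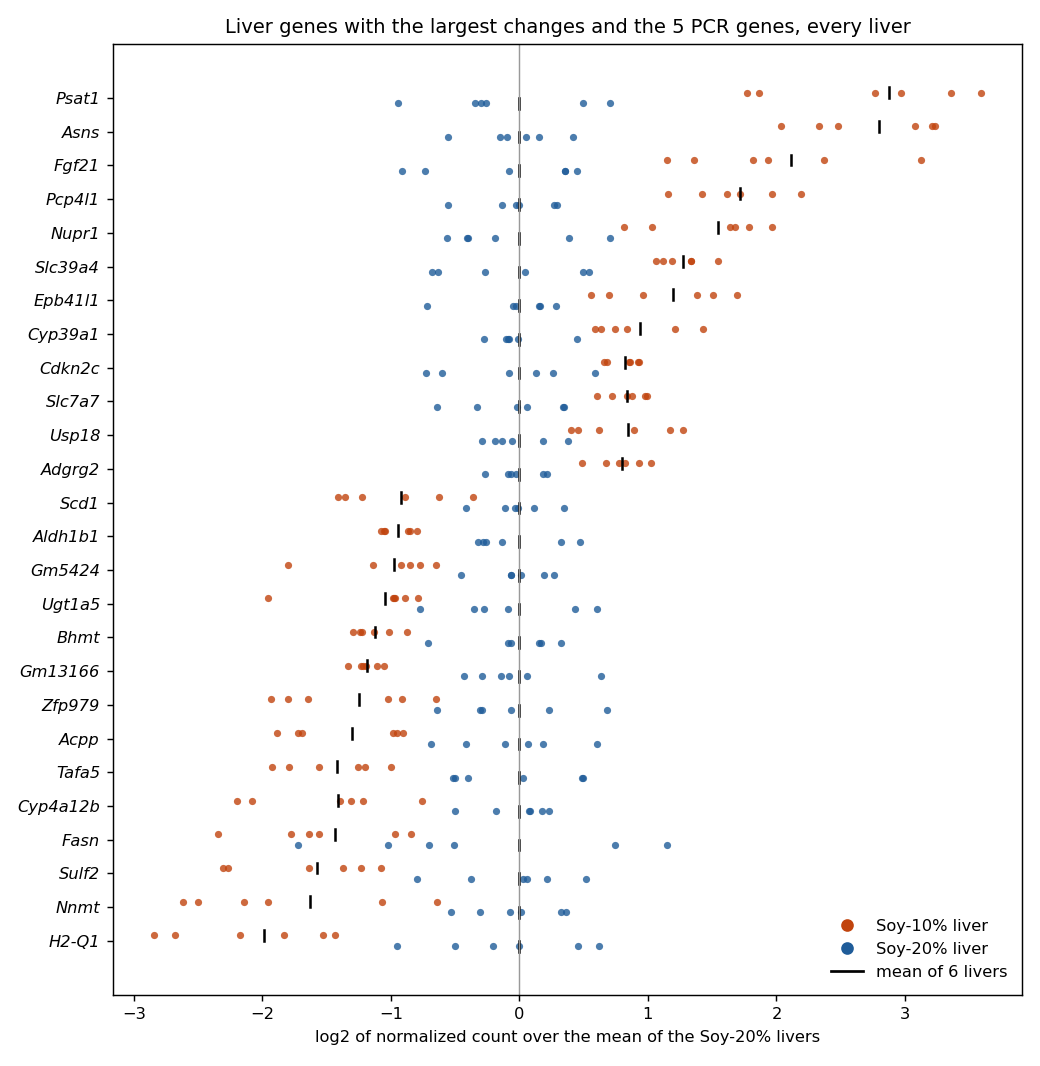
Each point is a liver, placed at the log2 of its normalized count over the mean of the Soy-20% livers, with Soy-10% in orange, Soy-20% in blue and black ticks at the mean of 6 livers. The rows are the 12 largest rises and the 12 largest falls without overlap between the diets, together with *Fasn* and *Scd1*. *Psat1*, *Asns* and *Fgf21* lie farthest to the right, and *Fasn* and *Scd1* are the rows in which both diets overlap.

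The ATF4 and integrated stress response list held 28 tested genes, of which 5 rose and none fell. Normalized counts below are the values deposited by the authors after division by a size factor for each library. *Asns* (chr6:7675169-7693254, GRCm38, minus strand), asparagine synthetase, had 124, 209, 91, 205, 112 and 187 normalized counts in the Soy-10% livers. In the Soy-20% livers it had 20.8, 29.6, 15.1, 23, 24.7 and 20.0. The lowest Soy-10% liver was thus above the highest Soy-20% liver, and the log2 fold change of 2.79 ± 0.23 (SE, adjusted p = 2.0e-05) was the one with the smallest p in the table. *Psat1* (chr19:15904678-15947337, minus strand), which makes phosphoserine on the route to serine, had 26.4, 60.5, 28.1, 79.3, 52.4 and 93.1 normalized counts on Soy-10%. It had 10.9, 6.09, 4.02, 6.27, 6.43 and 12.6 on Soy-20%. It rose by 2.87 ± 0.36 log2 units (adjusted p = 0.0012), from a level of few counts. *Fgf21* (chr7:45613886-45615490, minus strand), the hormone of amino acid shortage, had 150, 203, 87.1, 101, 344 and 139 normalized counts on Soy-10% and 50.3, 50.4, 37.2, 20.9, 23.6 and 53.7 on Soy-20%. The diets did not overlap and the log2 fold change was 2.10 ± 0.32 (adjusted p = 0.0040), with Soy-10% replicate 5 the highest of all livers. *Fgf21* was also the only one of 29 tested hepatokine genes to be called.

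The other called members were *Nupr1* and *Eif4ebp1*. *Nupr1*, a small stress-induced transcriptional regulator, ran from 36.6 to 81.5 with a median of 65.7 on Soy-10%, against 14.1 to 33.9 with a median of 17.0 on Soy-20%. All Soy-10% livers were above all Soy-20% livers (log2 fold change 1.56 ± 0.24, adjusted p = 0.0041). *Eif4ebp1*, whose product restrains cap-dependent translation, rose by 0.33 ± 0.07 log2 units (adjusted p = 0.039) with overlap between the diets, and its adjusted p was 0.066 without Soy-10% replicate 4. In the list as a whole, 12 genes were higher and none lower at an unadjusted p under 0.05, against 5.52% and 6.75% of all genes tested. The median log2 fold change of the list was 0.22, with 20 of 28 members above 0, against a median of 0.00 and 49.9% above 0 over all genes tested. Among members that missed the threshold, and named after their values were seen, *Mthfd2* had a log2 difference of 1.02 ± 0.25 (adjusted p = 0.068) and *Vldlr* of 0.96 ± 0.23 (adjusted p = 0.064). *Atf4* itself had 0.11 (adjusted p = 0.59). The aminoacyl-tRNA synthetases, which load amino acids onto tRNA and are often raised by ATF4, had no call among 19 by edgeR, DESeq2 or voom, with 4 higher and none lower at an unadjusted p under 0.05, 14 above 0 and a median of 0.08. The smallest p among them belonged to *Gars*, at 0.26 ± 0.07 log2 units (adjusted p = 0.11).

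The annotated promoter windows were read for the letters TGATGNAA, a form of the CEBP-ATF response element at which ATF4 binds, on both strands. The windows run from 250 bases before to 50 bases after the RefSeq start (GRCm38.p6). A match was present for 9 of 29 ATF4 list genes with a window (31.0%), against 264 of 9209 tested genes (2.87%). Over all gene symbols with a window it was 1219 of 27025 (4.51%), and over single windows 1304 of 32851 (3.97%). Of the called genes with a window, 4 of 29 that rose (13.8%) and 1 of 43 that fell (2.33%) held it. *Asns*, *Fgf21* and *Nupr1*, 3 of those 4, are members of the ATF4 list, which was chosen for known ATF4 targets. These shares are therefore not independent of each other or of the motif, and they are no test of the diet. The 3 windows below are shown because they belong to called ATF4 list genes with a match, which stands in capitals. They lie on the minus strand and are written 5′ to 3′ in the direction of the gene, at chr6:7693160-7693459 (*Asns*), chr7:45615441-45615740 (*Fgf21*) and chr7:126625421-126625720 (*Nupr1*).
Asns: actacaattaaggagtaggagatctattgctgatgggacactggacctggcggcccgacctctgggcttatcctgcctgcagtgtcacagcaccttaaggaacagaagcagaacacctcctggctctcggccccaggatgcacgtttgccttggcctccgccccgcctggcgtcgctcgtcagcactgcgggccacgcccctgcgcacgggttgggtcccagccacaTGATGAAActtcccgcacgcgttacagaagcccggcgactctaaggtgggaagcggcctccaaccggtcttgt
Fgf21: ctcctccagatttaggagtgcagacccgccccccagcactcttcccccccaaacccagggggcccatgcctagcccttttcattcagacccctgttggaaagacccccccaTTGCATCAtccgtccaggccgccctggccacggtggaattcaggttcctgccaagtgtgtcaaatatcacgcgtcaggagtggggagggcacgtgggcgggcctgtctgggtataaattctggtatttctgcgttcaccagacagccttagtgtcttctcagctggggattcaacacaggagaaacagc
Nupr1: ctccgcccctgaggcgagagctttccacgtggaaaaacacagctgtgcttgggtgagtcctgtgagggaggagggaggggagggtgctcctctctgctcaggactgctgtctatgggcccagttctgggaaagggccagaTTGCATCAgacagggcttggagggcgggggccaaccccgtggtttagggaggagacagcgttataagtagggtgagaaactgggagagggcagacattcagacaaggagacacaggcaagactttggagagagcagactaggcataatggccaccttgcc
The *Asns* match began 23 bases before the start and read along the gene, whereas those of *Fgf21* and *Nupr1* began 139 and 110 bases before it and read on the opposite strand. *Slc7a7*, a called gene outside the list, also held the letters, as did *Tiam2*, which was lower. No match of these letters was found in either *Psat1* window. These are matches of letters and no binding was measured.

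Of 26 transporters of amino acids tested, 1 was called (3.85%, against 0.866% of all genes tested). It was *Slc7a7*, the light chain of a cationic amino acid exchanger. It ran from 50.1 to 65.5 normalized counts with a median of 59.6 on Soy-10%, against 21.1 to 41.8 with a median of 33.5 on Soy-20%, and rose by 0.82 ± 0.15 log2 units (adjusted p = 0.017). All Soy-10% livers were above all Soy-20% livers. The list was evenly split, with 13 members above and 13 below 0. At an unadjusted p under 0.05, 4 were higher and 2 lower, against 5.52% and 6.75% of all genes tested.

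Enzymes of the methionine cycle and methyl transfer were lower on Soy-10% in 4 of 22 tested, and none was higher. *Bhmt* (chr13:93616675-93637961, minus strand), which remethylates homocysteine with betaine, had 4485, 3471, 3746, 3519, 3338 and 4053 normalized counts on Soy-10%. On Soy-20% it had 10286, 9241, 9140, 7861, 5028 and 7709. Every Soy-10% liver was below every Soy-20% liver, and the mean fell from 8211 ± 1829 to 3769 ± 431 (SD, 6 livers each), a log2 fold change of −1.13 ± 0.13 (adjusted p = 6.0e-04). *Dmgdh*, which oxidises the dimethylglycine that BHMT releases, ran from 1505 to 1690 with a median of 1560, against 2032 to 2630 with a median of 2186 (log2 fold change −0.49 ± 0.07, adjusted p = 0.0017). *Gnmt*, the glycine N-methyltransferase that uses up surplus S-adenosylmethionine, ran from 14940 to 19642 with a median of 17934, against 21615 to 24853 with a median of 23235 (−0.40 ± 0.07, adjusted p = 0.0078). Neither gene overlapped between the diets. *Nnmt* (chr9:48591877-48605153, minus strand), which spends methyl groups on nicotinamide, had 217, 117, 80.4, 103, 74.1 and 291 normalized counts on Soy-10% and 368, 584, 315, 458, 431 and 570 on Soy-20%. It did not overlap and fell by 1.62 ± 0.28 on the log2 scale (adjusted p = 0.0087). A further 5 members were lower at an unadjusted p under 0.05, and the list had 16 of 22 members below 0 and a median of −0.14. The same 4 genes were called without Soy-10% replicate 4.

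The serine and folate one-carbon list held calls in both directions. *Psat1* rose, and *Aldh1l1*, *Ftcd*, *Dmgdh* and *Gnmt* fell, out of 16 tested. *Aldh1l1*, which oxidises 10-formyl-tetrahydrofolate, ran from 1669 to 2346 on Soy-10% and from 2524 to 3142 on Soy-20% (log2 fold change −0.46 ± 0.08, adjusted p = 0.0078). *Ftcd*, which passes the formimino group of histidine to folate, ran from 2215 to 2746 against 2857 to 3258 (−0.35 ± 0.06, adjusted p = 0.0087). The values of both diets did not overlap for either gene. *Psph*, the last step of serine synthesis, missed the threshold at 0.52 ± 0.14 log2 units (adjusted p = 0.10).

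Among genes of transsulfuration, taurine, glutathione synthesis and the NRF2 response, *Csad*, *Gss*, *Ephx1* and *Gstm1* rose, while those that make cysteine did not pass the test. *Csad* (chr15:102176999-102204724, minus strand), the decarboxylase that makes hypotaurine from cysteine sulfinate, had 14258, 16068, 16819, 15242, 14567 and 15495 normalized counts on Soy-10%, and 12067, 9645, 9766, 11651, 10849 and 11997 on Soy-20%. No values overlapped, and it rose 1.4-fold (log2 fold change 0.49 ± 0.07, adjusted p = 0.0027). *Papss2*, which activates sulfate for transfer, fell by 0.38 ± 0.08 on the log2 scale (adjusted p = 0.025). Those were the calls among 14 genes of transsulfuration, cysteine and taurine. *Cbs*, *Cth* and *Cdo1*, which lead from homocysteine to cysteine sulfinate and are named here after their values were seen, had log2 differences of −0.02, −0.10 and −0.05 (adjusted p from 0.68 to 0.96). Of 31 genes of glutathione synthesis and NRF2 response, 3 rose. *Gss*, glutathione synthetase, ran from 380 to 426 on Soy-10% and from 251 to 357 on Soy-20%, without overlap (0.42 ± 0.08, adjusted p = 0.025). *Ephx1*, the microsomal epoxide hydrolase (0.50 ± 0.11), and *Gstm1*, a glutathione transferase with close paralogs that could share reads (0.38 ± 0.09), each had an adjusted p of 0.047. Without Soy-10% replicate 4, their adjusted p were 0.079 and 0.083, and *Gss* alone kept its call. Over the 12 fits that each left out 1 liver, the calls of *Gss*, *Ephx1* and *Gstm1* held in 5, 2 and 1.

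**Figure D3:**
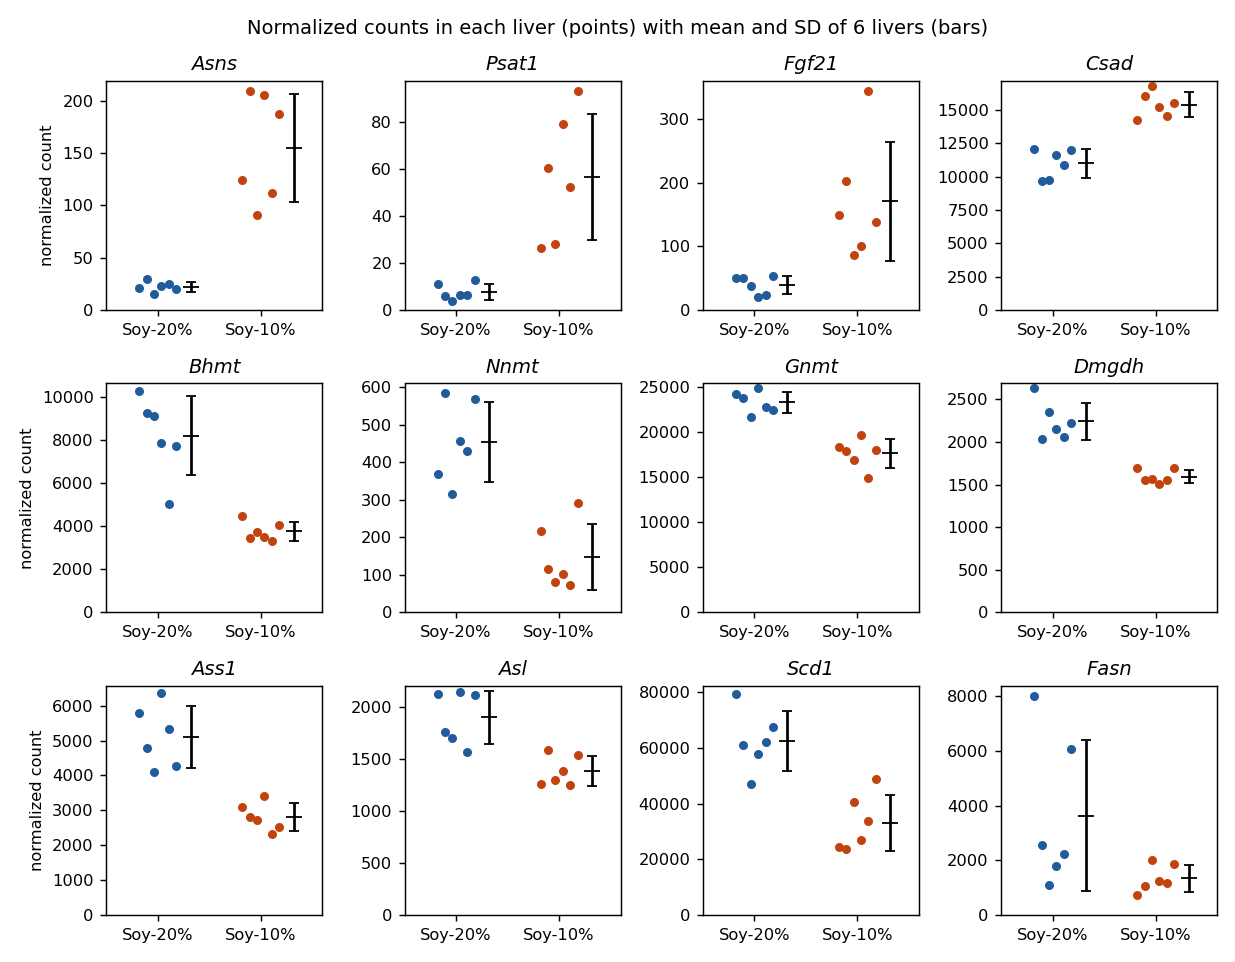
Normalized counts of 12 genes are plotted for each liver, with Soy-20% in blue, Soy-10% in orange and black bars at the mean ± SD of 6 livers. Every axis starts at 0. *Asns*, *Psat1*, *Fgf21* and *Csad* are higher on Soy-10% and *Bhmt*, *Nnmt*, *Gnmt*, *Dmgdh* and *Ass1* lower, all without overlap, while *Asl*, *Scd1* and *Fasn* overlap.

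Urea cycle and ammonia genes were lower on Soy-10% in 3 of 13 tested, and none was higher. *Ass1* (chr2:31470207-31520672, plus strand), argininosuccinate synthetase, had 3086, 2802, 2709, 3407, 2317 and 2514 normalized counts on Soy-10% and 5806, 4793, 4110, 6365, 5336 and 4265 on Soy-20%. Every Soy-10% liver was below every Soy-20% liver (log2 fold change −0.87 ± 0.11, adjusted p = 0.0013). *Asl*, the lyase of the next step, ran from 1250 to 1584 against 1571 to 2147, an overlap of the closest livers (−0.46 ± 0.09, adjusted p = 0.021). *Gls2*, the liver glutaminase, fell by 0.49 ± 0.10 on the log2 scale (adjusted p = 0.033), and its adjusted p was 0.075 without Soy-10% replicate 4. *Gm5424*, annotated as a processed pseudogene, was lower by 0.98 ± 0.17 log2 units (adjusted p = 0.010), at 17.4 to 38.6 against 44.2 to 73.1 normalized counts. Reads of a processed pseudogene and its parent gene can be exchanged by the counting, so its value is uncertain. The list had 10 of 13 members below 0 and a median of −0.16.

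Of 52 genes of amino acid breakdown tested, 30 were lower and none higher at an unadjusted p under 0.05, against 6.75% of all genes tested on that side, and 46 were below 0 with a median of −0.19. Only 4 were called. *Prodh*, which starts proline oxidation, fell by 0.63 ± 0.12 on the log2 scale (adjusted p = 0.020). *Uroc1*, urocanase of the histidine route, ran from 1897 to 2147 against 2234 to 2797 without overlap (−0.33 ± 0.06, adjusted p = 0.012). *Ftcd* of the same route and *Gls2* were the remaining calls, and *Gls2* was the call lost without Soy-10% replicate 4. Called genes outside the list included *Aldh7a1* of lysine breakdown (−0.26 ± 0.05), *Hsd17b10* of isoleucine breakdown (−0.48 ± 0.08), *Abat* of GABA and beta-alanine breakdown (−0.32 ± 0.07) and *Adk*, adenosine kinase (−0.32 ± 0.06). The adjusted p of *Abat* was 0.041, and 0.072 without Soy-10% replicate 4, and its call held in 3 of the 12 fits that each left out 1 liver.

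**Figure D4:**
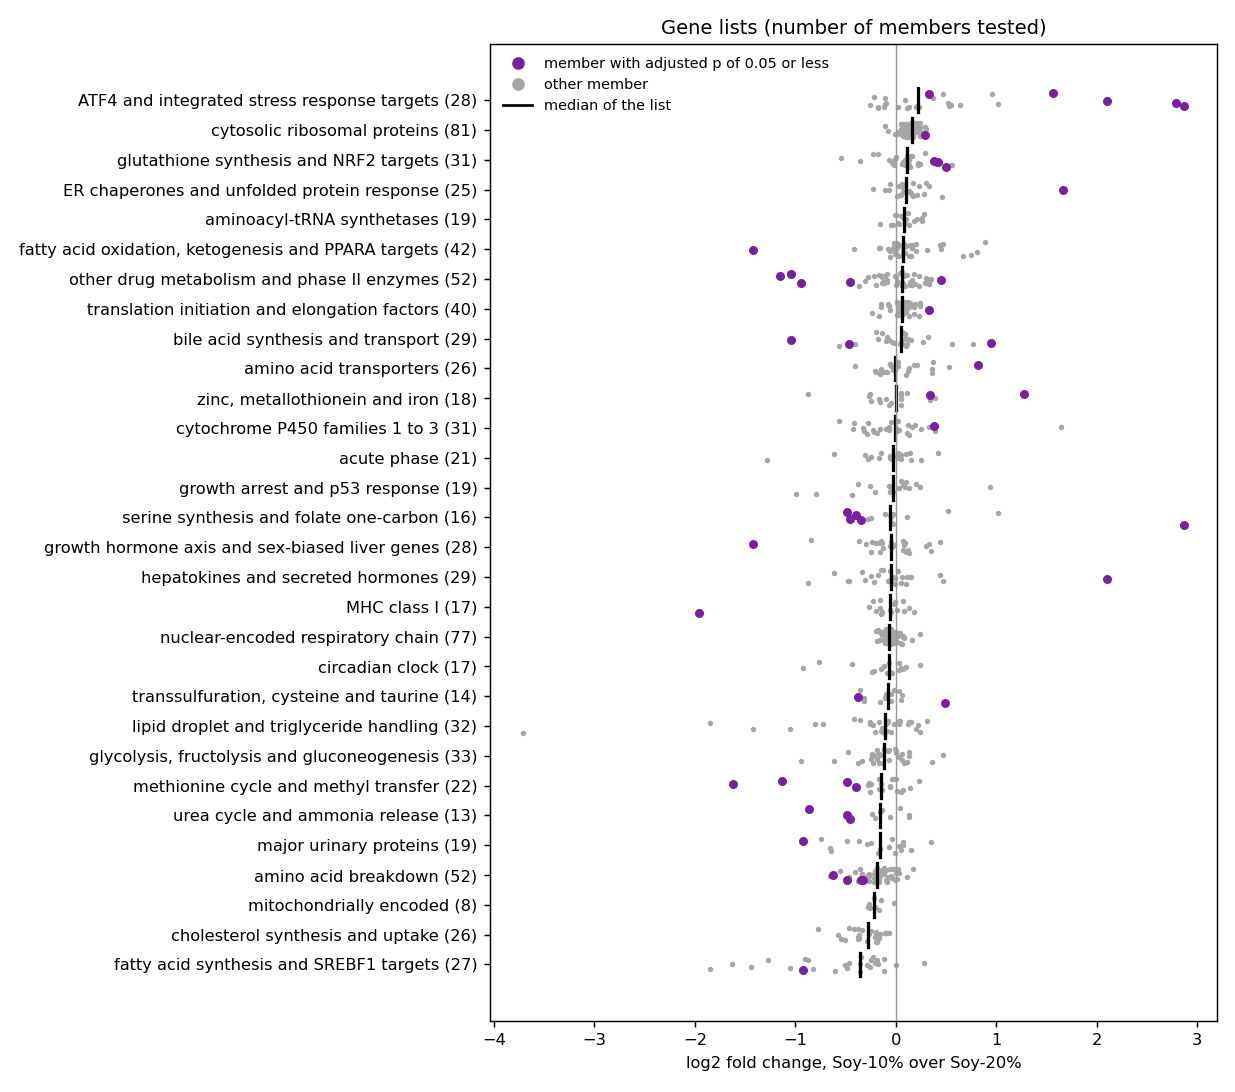
Each point is a gene of a list, placed at its log2 fold change of Soy-10% over Soy-20%, with genes at an adjusted p of 0.05 or less in purple and a black tick at the median of the list. The lists are ordered by that median, from 0.22 for ATF4 targets at the top to −0.36 for fatty acid synthesis at the bottom. Lists share members, such as *Gnmt* and *Ftcd*.

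Fatty acid synthesis genes were lower in the median, but the Soy-20% livers varied widely. *Scd1* (chr19:44394455-44407879, minus strand), stearoyl-CoA desaturase, had 24442, 23558, 40486, 26751, 33716 and 48668 normalized counts on Soy-10%. It had 79433, 61118, 46954, 57820, 62152 and 67687 on Soy-20%. It fell by 0.93 ± 0.17 on the log2 scale (adjusted p = 0.012), although the highest Soy-10% liver was above the lowest Soy-20% liver. *Fasn* (chr11:120805846-120824547, minus strand), fatty acid synthase, had 711, 1053, 2012, 1227, 1163 and 1852 on Soy-10%, against 8006, 2544, 1095, 1783, 2219 and 6066 on Soy-20%. Its log2 difference of −1.44 ± 0.40 did not pass the test (adjusted p = 0.11). Livers 1 and 6 of Soy-20% held the high values, and the range of the other 4 overlapped that of the Soy-10% livers. The same 2 livers were highest for *Thrsp* (8605 and 8302, against at most 2814 in the other 10) and *Elovl6* (3553 and 3086, against at most 1169), both named after their values were seen. Of 27 genes tested in the list, 1 was called, 17 were lower at an unadjusted p under 0.05, and 26 were below 0 with a median of −0.36. Across the alternative settings the list's median ran from −0.48 to −0.27 and its number of calls from 0 to 7. Cholesterol synthesis genes had no call among 26 by edgeR, DESeq2 or voom. Of these, 6 were lower at an unadjusted p under 0.05, against 6.75% of all genes tested, and the median was −0.28. *Acat2* (−0.47 ± 0.18) and *Dhcr7* (−0.58 ± 0.24) were among those with the smallest p. Among 33 genes of glycolysis and gluconeogenesis none was called by edgeR or voom and 2 were called by DESeq2. By edgeR, 6 had an unadjusted p under 0.05, against 12.3% of all genes tested. *Txnip* (0.47 ± 0.13, adjusted p = 0.11) and *Pfkfb1* (−0.38 ± 0.11, adjusted p = 0.13) were among those 6.

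Of 42 genes of fatty acid oxidation and ketogenesis tested, *Cyp4a12b*, an omega-hydroxylase that is also a male-biased gene, fell and none rose. At an unadjusted p under 0.05 the list had 8 members higher and 1 lower, against 5.52% and 6.75% of all genes tested. It had 28 above 0 and a median of 0.07. Those 8 included *Acot1*, an acyl-CoA thioesterase (0.75 ± 0.22), and *Angptl4*, an inhibitor of lipoprotein lipase (0.47 ± 0.14), with adjusted p of 0.13 and 0.14. *Cyp4a12b* ran from 115 to 312 with a median of 207 on Soy-10% and from 372 to 618 with a median of 558 on Soy-20%, without overlap (log2 fold change −1.42 ± 0.19, adjusted p = 0.0018). It has near-identical neighbours in the Cyp4a cluster, so part of its count may come from them. It was also the call among 28 genes of the growth hormone axis. *Mup2*, of the major urinary proteins, fell by 0.93 ± 0.17 on the log2 scale (adjusted p = 0.012), and was the call among 19 members of a family whose 3′ ends are alike. Among 32 lipid droplet genes none was called by edgeR, DESeq2 or voom. At an unadjusted p under 0.05, 1 was higher and 7 lower, against the same 5.52% and 6.75% of all genes tested. *Cidea* ran from 2.03 to 57.0 normalized counts on Soy-10% and from 6.43 to 900 on Soy-20% (adjusted p = 0.13 by edgeR).

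Among genes of bile acids, 1 of 29 rose and 2 fell. *Cyp39a1*, an oxysterol 7-alpha-hydroxylase, ran from 99.7 to 178 with a median of 114 on Soy-10% and from 54.8 to 90.1 with a median of 62.5 on Soy-20% (log2 fold change 0.95 ± 0.16, adjusted p = 0.0078). *Slc10a2*, the bile acid transporter of cholangiocytes and ileum, fell by 1.04 ± 0.19 on the log2 scale (adjusted p = 0.016), with values of 105 to 158 against 153 to 387. *Akr1d1*, the 5-beta-reductase, fell by 0.47 ± 0.09 (adjusted p = 0.017). *Cyp39a1* and *Akr1d1* did not overlap between the diets. In drug metabolism, *Cyp2c37* rose among 31 genes of cytochrome P450 families 1 to 3 (0.38 ± 0.08, adjusted p = 0.034, and 0.074 without Soy-10% replicate 4). Of 52 other drug metabolism genes, *Ugt2b5* rose (0.45 ± 0.09) and 4 fell. These were *Aldh1b1*, a mitochondrial aldehyde dehydrogenase (230 to 279 against 388 to 672, −0.94 ± 0.13, adjusted p = 0.0020), *Tpmt*, thiopurine methyltransferase (251 to 325 against 347 to 426, −0.46 ± 0.07, adjusted p = 0.0073), *Sult5a1* (−1.15 ± 0.25) and *Ugt1a5*. *Ugt1a5* ran from 15.2 to 34.2 against 34.5 to 89.5 (−1.04 ± 0.23, adjusted p = 0.044). It shares its 3′ exons with the other Ugt1a genes, so 3′ counts cannot assign it with certainty, and its call held in 3 of the 12 fits that each left out 1 liver. Without Soy-10% replicate 4 the list had 2 genes higher and 3 lower, since *Ugt1a5* lost its call (adjusted p = 0.075) and *Ugt2b36* gained one (adjusted p = 0.043, against 0.074 with all livers).

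Further large rises belonged to genes of varied function. *Pcp4l1*, a small calmodulin-regulator-like protein gene, had 138, 235, 158, 169, 201 and 115 normalized counts on Soy-10% and 35.0, 51.3, 63.3, 47.0, 62.2 and 50.5 on Soy-20%. The diets were far apart (log2 fold change 1.71 ± 0.17, adjusted p = 0.00015). *Slc39a4*, the zinc importer ZIP4, had 529, 612, 437, 476, 529 and 455 against 216, 174, 295, 131, 135 and 305 (1.27 ± 0.18, adjusted p = 0.0022). It was called together with the iron exporter *Slc40a1* (0.34 ± 0.08, adjusted p = 0.048, and 0.060 without Soy-10% replicate 4) among 18 genes of zinc, metallothionein and iron. *Epb41l1*, a membrane skeleton gene, ran from 48.4 to 106 with a median of 74.8 against 20.0 to 40.0 with a median of 34.3 (1.18 ± 0.21, adjusted p = 0.011). *Adgrg2*, an adhesion receptor, ran from 66.0 to 95.9 against 39.1 to 54.6 (0.80 ± 0.12, adjusted p = 0.0027). *Usp18*, a protease that removes the interferon-induced modifier ISG15, ran from 76.0 to 139 against 47.2 to 74.8 (0.82 ± 0.17, adjusted p = 0.025), and its call held in 6 of the 12 fits without 1 liver. *Cdkn2c*, a cyclin-dependent kinase inhibitor, ran from 43.8 to 52.8 against 16.8 to 41.8 (0.83 ± 0.18, adjusted p = 0.047, and 0.061 without Soy-10% replicate 4), with a call in 2 of the 12. Apart from *Slc40a1*, the genes of this group did not overlap between the diets. *Lepr*, the leptin receptor, rose by 1.20 ± 0.26 with overlap (15.2 to 36.5 against 4.18 to 16.1, adjusted p = 0.043), and had an adjusted p of 0.083 without Soy-10% replicate 4. *Derl3*, of endoplasmic reticulum protein degradation, rose by 1.66 ± 0.33 (13.3 to 38.7 against 6.03 to 14.2, adjusted p = 0.022). It was the call among 25 genes of the unfolded protein response and was no longer called without that liver.

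Large falls outside the pathways above were led by *H2-Q1*, a class I histocompatibility gene. It had 15.2, 27.4, 33.9, 13.6, 21.6 and 36.1 normalized counts on Soy-10% and 134, 84.4, 97.5, 69.0, 50.4 and 150 on Soy-20% (log2 fold change −1.96 ± 0.28, adjusted p = 0.0022). It was the call among 17 class I genes, whose sequences are alike, so the assignment of its reads is uncertain. *Sulf2*, a heparan sulfate endosulfatase, ran from 16.2 to 38.0 with a median of 28.4 against 46.1 to 115 with a median of 82.7 (−1.56 ± 0.23, adjusted p = 0.0027). *Tafa5*, which encodes a secreted peptide, ran from 6.46 to 12.3 against 17.2 to 34.7 (−1.41 ± 0.25, adjusted p = 0.012). *Acpp*, an acid phosphatase, ran from 9.11 to 18 against 20.9 to 51.3 (−1.27 ± 0.24, adjusted p = 0.018), and its call held in 11 of the 12 fits without 1 liver. The zinc finger gene *Zfp979* (−1.24 ± 0.26, adjusted p = 0.030, called in 7 of the 12) and the noncoding *Gm13166* (26.4 to 32 against 49.3 to 103, −1.19 ± 0.17, adjusted p = 0.0022) lie on the same chromosome, 4. All 6 genes were free of overlap. *Dct*, dopachrome tautomerase, fell by 1.87 ± 0.31 with overlap (6.46 to 26.6 against 22.5 to 67.4, adjusted p = 0.0070).

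*Sox9*, a transcription factor of bile duct cells, shared with *Bhmt* the smallest adjusted p among genes that fell. It ran from 156 to 196 with a median of 172 on Soy-10% and from 240 to 317 with a median of 271 on Soy-20% (log2 fold change −0.65 ± 0.08, adjusted p = 6.0e-04). The summed level of 5 measured cholangiocyte markers, *Sox9* among them, ran from 25.2 to 33.6 CPM on Soy-10% and from 35.1 to 51.2 on Soy-20% (exact permutation p = 0.0022, the smallest that 6 against 6 allows). Without *Sox9* it ran from 10.4 to 15.6 against 11.5 to 25.3 (exact permutation p = 0.12). *Krt19*, *Krt7* and *Epcam* were each near 1 CPM or below. The part of bile duct cells in the *Sox9* value was not tested.

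Ribosomal protein genes were slightly higher as a list. Of 81 tested, 78 were above 0, 44 were higher and none lower at an unadjusted p under 0.05 (against 5.52% of all genes tested), and the median was 0.16, with a range from −0.11 to 0.30. *Rps12* was called (0.29 ± 0.06, adjusted p = 0.046, and 0.069 without Soy-10% replicate 4). Over the alternative settings 76 to 79 of the genes were above 0, with medians from 0.13 to 0.20. Translation factors had 33 of 40 members above 0, a median of 0.06 and the call of *Eif4ebp1*. The mitochondrially encoded protein genes had no call among 8 by edgeR, with 5 lower at an unadjusted p under 0.05, and all were below 0 with a median of −0.21. *mt-Nd5* had the smallest p (−0.27 ± 0.06, adjusted p = 0.055). It was called by DESeq2 (adjusted p = 0.00079) and voom (0.030), and *mt-Cytb* by DESeq2 (0.013). Outside the list, the mitochondrial tRNA gene *mt-Tl1* fell by 0.76 ± 0.16 on the log2 scale (adjusted p = 0.033, and 0.060 without Soy-10% replicate 4). Nuclear genes of the respiratory chain had no call among 77 by edgeR or voom. At an unadjusted p under 0.05, 11 were lower, against 6.75% of all genes tested. Of the 77 genes, 63 were below 0, and the median was −0.07. DESeq2 called *Sdhb* (adjusted p = 0.0048) and *Ndufa13* (0.031). No gene was called by edgeR among 17 circadian clock, 21 acute phase and 19 growth arrest genes, in which 2, 5 and 3 genes had an unadjusted p under 0.05. DESeq2 called 0, 2 and 1 of them and voom 0, 2 and 0. The smallest p in these lists belonged to *Bhlhe40* (adjusted p = 0.28 by edgeR), *Orm1* (0.087) and *Btg2* (0.11).

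The casein comparison, Cas-5% against Cas-20%, gave 3008 of 12076 genes at an adjusted p of 0.05 or less (24.9%). The protein reduction was larger there, from 20% to 5% casein. Methionine fell from 0.57 to 0.15 g and cysteine from 0.41 to 0.1 g per 100 g of diet. Both casein diets had cystine added, unlike the soy diets compared here. The sizes of the changes are therefore set side by side rather than matched. All 103 genes were tested in it, 92 were called there too and 102 had the same sign, the exception being *Bcl3* (−0.34 after soy and 0.12 after casein). How many of all genes tested shared their sign in both comparisons was not counted, so the 102 have no background share beside them. The difference of the casein and soy changes was tested in 1 fit of 24 livers, and 746 of 12450 genes passed (5.99%), or 624 without Soy-10% replicate 4. They included 49 of the 103 genes, 13 higher and 36 lower, and each of the 49 changed more after casein restriction.

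The methyl and taurine genes were among those with the clearest differences. *Nnmt* changed by −4.95 ± 0.26 log2 units after casein restriction and by −1.62 ± 0.28 after soy restriction (adjusted p of the difference 2.0e-05). *Csad* rose by 2.72 ± 0.19 and by 0.49 ± 0.07 (adjusted p = 1.9e-07). *Gnmt* changed by −1.68 ± 0.11 and −0.40 ± 0.07 (adjusted p = 4.1e-07), and *Bhmt* by −2.69 ± 0.21 and −1.13 ± 0.13 (adjusted p = 0.00034). *Ass1* changed by −2.39 ± 0.16 and −0.87 ± 0.11 (adjusted p = 3.6e-05). Among ATF4 targets, *Psat1* rose more after casein, by 5.02 ± 0.17 against 2.87 ± 0.36 (adjusted p = 0.012). For *Fgf21* the changes were 2.56 ± 0.33 and 2.10 ± 0.32, with a difference of 0.45 ± 0.52 (adjusted p = 0.70), and for *Asns* 3.76 ± 0.24 and 2.79 ± 0.23, with a difference of 0.96 ± 0.39 (adjusted p = 0.15). These differences did not pass, which does not show that the changes were equal. *Slc39a4* and *H2-Q1* changed by 0.93 ± 0.15 and −2.60 ± 0.15 after casein, and neither difference from the soy value passed (adjusted p = 0.49 and 0.31).

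**Figure D5:**
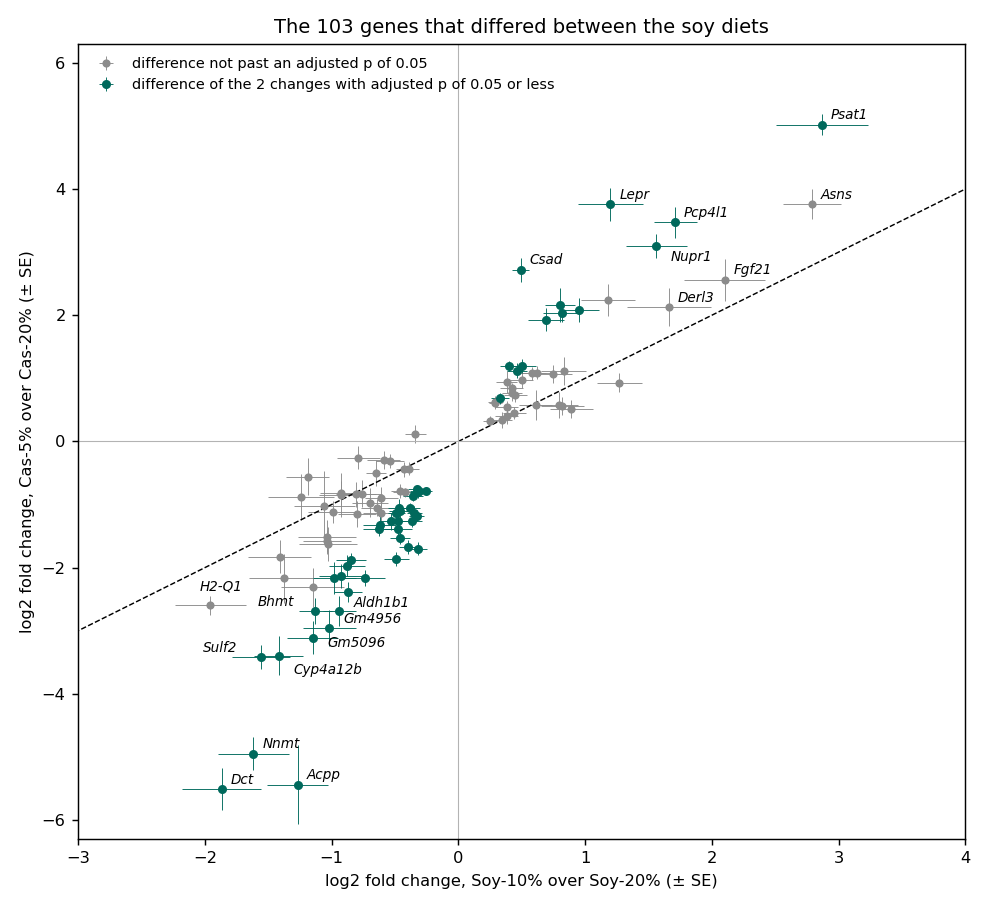
Each point is 1 of the 103 genes, placed by its log2 fold change of Soy-10% over Soy-20% (horizontal) and of Cas-5% over Cas-20% (vertical), with bars of 1 SE. The dashed line marks equal changes. The 49 genes in green, whose changes differed at an adjusted p of 0.05 or less, all lie farther from 0 on the casein axis, and *Fgf21*, *Asns* and *H2-Q1* are in grey.

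Leaving out Soy-10% replicate 4 brought in 13 genes. They included *Arf5*, *Ggh*, *Unc50*, *Akr1c13* and *Nup37*. *Arf5*, a trafficking GTPase, had 1146 normalized counts in that liver and 703 to 851 in the other 5 Soy-10% livers, with a move of the log2 fold change from −0.26 (adjusted p = 0.30) to −0.38 (adjusted p = 0.022). *Nup37*, a nuclear pore gene, had 55.3 there and 77.5 to 82.6 in the others, with a move from 0.46 to 0.53 (adjusted p = 0.033).

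The 103 genes kept their direction in every alternative fit that tested them. The call of 44 held in all 12 fits that each left out 1 liver and that of 24 in 3 or fewer. *Asns*, *Psat1*, *Fgf21*, *Bhmt*, *Ass1*, *Csad*, *Gnmt*, *Nnmt* and *Scd1* were among the 44. Of these named genes, *Csad* and *Scd1* were not called by edgeR when all 30 livers shared a fit (adjusted p = 0.23 and 0.075). Only 28 of the 103 were called in every alternative fit that tested them. Over the 12 fits without 1 liver, the call held in 6 for *Asl* and *Derl3*. It held in 5 for *Papss2*, *Aldh7a1*, *Sult5a1* and *Ugt2b5*, and in 4 for *Cyp2c37*. For *Lepr* and *mt-Tl1* it held in 3, for *Gls2*, *Eif4ebp1* and *Slc40a1* in 2, and for *Rps12* in 1.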

How the data were processed

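Liver RNA was sequenced by the authors with the Lexogen QuantSeq 3′ FWD kit on a NextSeq 500 and processed with the Bluebee QuantSeq pipeline. Reads of 50 bp are given in the labels and of 75 bp in the published methods. The submitters' processing notes name GRCm38, mm10, R 4.0.3 and DESeq2 1.30, and the aligner and annotation release are not given in the sources used here. The authors deposited raw counts per gene (14173 genes, each with at least 90 counts over 30 livers) and a normalized signal, for which those counts had been divided by a size factor per library. Neither is scaled to gene length. A missing symbol was taken from GENCODE M21 for 1684 of 1718 genes.

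Soy-10% was compared with Soy-20% (6 livers each) on the raw counts with edgeR 4.0.16 in R 4.3.3 (filterByExpr, TMM, quasi-likelihood F test, Benjamini-Hochberg adjustment, a call at 0.05 or less). Errors are standard errors unless marked SD. The difference of the casein and soy changes was tested as an interaction in 24 livers. DESeq2 1.42.0, voom of limma 3.58.1, other filters, a fit of all 30 livers, a replicate block and fits without 1 liver were alternatives. Two-sided exact permutation tests (scipy 1.17.1) were used for marker sums and library totals. Tables and plots were made in Python 3.11.15 with pandas 2.3.3, numpy 2.4.6 and matplotlib 3.10.9. The 12 libraries hold 9362715 to 13050108 counts. On simulated counts for the soy comparison (11897 genes), edgeR called 74% of genes changed 1.5-fold, 90.9% of those changed 2-fold and 100% of those changed 3- or 4-fold, with 9 false calls. Replicate numbers are not said to pair mice, so the main fit had no block.

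Members and gene lists were chosen with earlier results of these data known, and lists overlap. The named genes were the 5 PCR genes of the study, the 12 largest rises and falls among called genes with a mean of at least 10 counts in a diet and no overlap, called members of each list (or, where none was called, up to 3 with the smallest p), other called genes, the leading cell type markers, and up to 6 genes called only without Soy-10% replicate 4. Promoter windows are from RefSeq on GRCm38.p6. Livers of Soy-20% + SAA entered the fit of all 30 livers and a comparison with Soy-10% that the text does not use. Some genes that the rule chose are left out of the text.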

Additional observations from a re-analysis of the deposited data

Results flagged for a closer look

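Of 294 groups of 6 livers examined (named genes except those left out of the text, marker sums and library totals in each diet), 28 (9.52%) had a liver whose gap to the nearest of the others was above Dixon's critical share of the group's range. Chance alone flags about 1 in 20 such groups if values are independent and normally distributed. Counts need not be normally distributed and the groups share livers, so 9.52% cannot be set against that rate. Of the 28 flagged groups, Soy-10% replicates 4 and 6 accounted for 5 each.

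In Soy-10% replicate 4 the pancreatic acinar sum was 1303 CPM, against 20.3 to 35.2 in the other Soy-10% livers. It was also highest for *Arf5* (1146 normalized counts), *Bhlhe41* (60.5) and *Mllt6* (154) and lowest for *Nup37* (55.3). Soy-10% replicate 6 was highest for *Cidea* (57.0), *Lad1* (41.8), *Orm1* (6379), the macrophage sum (621 CPM) and the adipocyte sum (102). Soy-10% replicate 1 was highest for *Fabp5* (230) and *Gadd45g* (219) and lowest for *Ugt1a5* (15.2). Soy-10% replicate 2 had the highest red blood cell sum (3479 CPM), and Soy-10% replicate 3 the lowest *Abca8b* (391).

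On Soy-20%, replicate 1 was highest for *Btg2* (104), *Hjv* (1324), *Polr3g* (231) and the lymphocyte sum (57.3 CPM). Replicate 2 had the highest *Ifi27l2a* (90.5), skeletal muscle sum (6.97 CPM) and library total (12046128 counts). Replicate 5 was highest for *Abca8a* (1294), *Cyp39a1* (90.1) and *Gadd45g* (368), and replicate 6 for *Cidea* (900), *Gm13166* (103) and *mt-Co1* (22316).

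For 14 genes with large changes the casein change differed from the soy change by the interaction test. In each the casein change was larger in the same direction. As casein minus soy in log2 units, the higher genes differed by 2.14 (*Psat1*), 1.75 (*Pcp4l1*), 1.52 (*Nupr1*), 1.35 (*Adgrg2*), 1.21 (*Slc7a7*) and 1.14 (*Cyp39a1*). The lower genes differed by −4.18 (*Acpp*), −3.33 (*Nnmt*), −1.99 (*Cyp4a12b*), −1.86 (*Sulf2*), −1.76 (*Aldh1b1*), −1.57 (*Bhmt*), −1.20 (*Scd1*) and −1.19 (*Gm5424*).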

How the results depend on the processing

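The count of 103 genes that differed between Soy-10% and Soy-20% moved by over 1.5 times to 228 with DESeq2's Wald test (102 of the 103 among them) and to 62 when all 30 livers shared a fit (51 of them). Leaving out each liver gave 50 to 146 genes. The count of 27 genes with changes of at least 1 log2 unit ran from 18 to 40 without each liver, and was 18 where 10 counts were required in every liver. Each of these alternatives tests another set of livers or genes, or another model, and the cause of the moves was not tested. Other settings gave 90 to 124 genes. With the replicate number as a block, 80 genes were called, 66 of them among the 103, and 694 genes for the casein difference against 746. The sources used here do not say that the numbers pair mice. Same-numbered livers deviated together with r from −0.161 to 0.175, and 2 of 12 livers correlated best with their own number. These values cannot show whether mice were paired. The casein difference ran from 601 to 764 genes without each liver. None of the 103 genes reversed under an alternative that tested it. *Cidea*, not called with all livers, had an adjusted p of 9.7e-05 with the replicate block. Depth limits fold changes of genes such as *Psat1*, with 4.02 to 12.6 normalized counts per Soy-20% liver, and *Derl3*, with 6.03 to 14.2.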

Other observations

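Called genes that no list above holds included *Dexi* (−0.43 ± 0.06 log2 units, 327 to 386 against 462 to 506 normalized counts, adjusted p = 0.0013), *Ncam2*, a cell adhesion gene (−0.88 ± 0.14), *Spc24*, a kinetochore gene (−0.85 ± 0.12), *Dusp1*, a MAP kinase phosphatase (−0.80 ± 0.15), *Slc25a25*, a mitochondrial ATP-Mg carrier (−0.93 ± 0.16), and *Hnmt*, histamine N-methyltransferase (−0.53 ± 0.10). Those that rose included the ABC transporters *Abca8a* (0.75 ± 0.15) and *Abca8b* (0.46 ± 0.08), the amyloid precursor gene *App* (0.40 ± 0.07, 651 to 710 against 436 to 574), and the interferon-induced *Ifi27l2a* (0.89 ± 0.17). The calls of *Dexi*, *Ncam2*, *Spc24*, *Dusp1*, *Slc25a25*, *Hnmt*, *Abca8b* and *App* held in all 12 fits without 1 liver, and that of *Abca8a* in 4 (adjusted p = 0.058 without Soy-10% replicate 4).

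Other lower genes were the citrate and succinate transporter *Slc13a2* (−1.38 ± 0.27), the ascorbate transporter *Slc23a1* (−0.48 ± 0.11), the carbonic anhydrase *Car14* (−0.61 ± 0.14), the iron regulator *Hjv* (−0.42 ± 0.10, 705 to 741 against 793 to 1324 normalized counts) and the prion protein gene *Prnp* (−0.36 ± 0.08). *Hjv* and *Prnp* did not overlap between the diets, while the other 3 did. These genes were near the calling threshold, with calls in 1 (*Car14*) to 8 (*Slc13a2*) of the 12 fits without 1 liver. Without Soy-10% replicate 4 the adjusted p was 0.075 for *Prnp* and 0.083 for *Slc23a1*, *Car14* and *Hjv*. Of the higher genes not yet given, *Atp6ap2*, an accessory subunit of the vacuolar proton pump, ran from 825 to 930 against 657 to 766 (0.29 ± 0.05, called in 11 of the 12), and *Htatip2* from 471 to 699 against 322 to 440 (0.58 ± 0.11, called in all 12). *Peg3*, an imprinted gene, rose by 0.69 ± 0.14 with overlap. The antisense *Gm11837* was also higher (0.62 ± 0.12). Its counts could not be separated from the gene opposite unless strand was used, which is not given in the sources used here.

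In a principal component analysis of the 12 livers, the leading component (18.7% of the variance) placed Soy-20% replicates 1 and 6, the livers with the highest *Fasn*, at −23.7 and −23.2. The other Soy-20% livers lay between −5.8 and 2.6, and the Soy-10% livers between −1.3 and 17.4.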
